A study of Mus musculus with 11 samples.

Results

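The integrated stress response and the unfolded protein response were followed through 36 genes in RNA-Seq of mouse dorsal root ganglia (DRGs), where the cell bodies of primary sensory neurons lie wrapped by satellite glial cells. The members were the rows of the deposited table that carry 1 of 36 gene symbols, 25 of the integrated stress response and 11 of the unfolded protein response. All 36 were found, 1 row each, among 36670 rows. The study asked what the orphan receptor GPR37L1 does in DRGs during neuropathic pain caused by paclitaxel (PTX), a chemotherapy agent. Its 11 libraries came from WT control mice (n = 3), WT mice given PTX (n = 3), *Gpr37l1* KO controls (n = 3) and KO mice given PTX (n = 2), with DRGs taken 4 weeks after PTX. The KO mice carry the germline allele *Gpr37l1*tm1Lex, which is not limited to satellite glia, and the methods of the study give adult mice on a C57BL/6 background. The labels code the controls with a V that they do not spell out. The study describes its baseline RNA-Seq (n = 3) as coming from noninjured, naive mice, so what the controls received is unclear. Whether a library holds the DRGs of a single mouse is not given in the sources used here, so p-values measure the spread between these libraries. The labels make the library numbered 3 in each group female and the others male, so a sex difference and a difference of that library cannot be told apart.

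In the integrated stress response, kinases that sense different kinds of stress phosphorylate the translation initiation factor eIF2. General translation then drops, while the mRNA of the transcription factor ATF4 is translated more, and ATF4 switches on genes for amino acid synthesis and uptake and for redox balance. In the unfolded protein response, PERK, IRE1 and ATF6 sense misfolded protein in the endoplasmic reticulum (ER) and raise chaperones and protein degradation, and PERK is shared with the integrated stress response. Axon injury and chemotherapy agents are known to engage both in sensory neurons. ATF4 and PERK are controlled largely by translation and phosphorylation, and XBP1 by splicing, none of which is read by the mRNA totals measured here.

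Among the members, *Atf4* and its targets *Asns* and *Chac1* were at their highest in the WT controls. For each of these 3 genes, every WT control library lay above every one of the other 8 libraries, a separation held by 1.28% of all genes tested. Of the 35 members tested, only these 3 showed it, and other genes induced by ATF4, such as *Trib3* and *Vldlr*, did not. By the median over the integrated stress response members, WT control 3 lay among the other 8 libraries. *Atf4* was 70.2, 70.9 and 71.7 FPKM in the WT controls and 45.9 to 57.2 FPKM in the other 8 libraries, where FPKM is the fragment level scaled for transcript length and library depth. The ER chaperone genes, among them *Hspa5*, which encodes BiP, overlapped between WT controls and the rest, except for *Dnajb9*, whose WT controls were the 3 lowest libraries. None of the members passed an adjusted p of 0.05 in edgeR's quasi-likelihood test in any comparison, and DESeq2 called 4 members for PTX in WT and 1 for KO against WT controls, where it called 2.05% and 0.278% of all genes tested.

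The libraries summed to 52735648 to 80348732 estimated counts, and both KO PTX libraries were at the low end with 54914928 and 56747335. *Gpr37l1*, the targeted gene, was at 14.6 to 35.7 FPKM in the WT libraries and at 0.21 to 1.15 FPKM in the KO libraries. Summed markers of sensory neurons (9 genes) and satellite glia (5 genes) were found in every group, at 3412 to 4594 and 988.1 to 1421 FPKM, and their ranges overlapped between groups. For both lists WT controls 1 and 2 lay above the other 8 libraries, while WT control 3 did not and was the lowest of all for satellite glia. In bulk tissue, fewer cells of a type and less RNA per cell cannot be told apart. Markers of central glia and spinal cord (6 genes) summed to 6.33 and 17.3 FPKM in the KO PTX libraries against 1.61 to 5.80 FPKM elsewhere, with *Olig2* under 0.5 FPKM in all 11 libraries. Skeletal muscle markers (6 genes) ranged from 3.22 to 567 FPKM, and red cell (5 genes, 71.5 to 294 FPKM) and neutrophil markers (4 genes, 6.98 to 74.4 FPKM) also varied within groups. Markers of myelinating Schwann cells (5 genes) summed to 1109 to 1980 FPKM with overlap between groups.

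In the WT controls, 18 of the 36 members were at 10 FPKM or more on average and 4 were under 2 FPKM. The highest levels belonged to *Calr*, a lectin chaperone of the ER that also binds calcium (114.6 ± 13.6 FPKM, SD, n = 3), and to *Hsp90b1*, the HSP90 paralog of the ER (89.1 ± 7.79 FPKM). *Atf4* (70.9 ± 0.76 FPKM), *Hspa5* (70.8 ± 6.05 FPKM) and *Asns* (68.4 ± 4.95 FPKM) followed, and these 3 neighbours did not differ beyond their spread. At the low end stood *Ern1*, which encodes the ER stress sensor IRE1 (1.18 ± 0.19 FPKM), and *Slc7a11*, the cystine and glutamate exchanger (0.23 ± 0.05 FPKM). *Slc7a11*, at 0.09 to 0.34 FPKM in all libraries, was the 1 member that did not reach a mean of 0.5 FPKM, and the other 35 were tested.

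Promoter sequences are shown for 3 members, because *Asns* and *Chac1* carry the pattern in the WT controls and *Hspa5* stands for the ER chaperones that do not. The sequences are RefSeq's (GRCm38.p6), 250 bases before the annotated start, on the gene's strand. Capitals mark, on either strand, TGATGNAA, the C/EBP-ATF composite element that ATF4 dimers can bind, or the ER stress element, CCAAT and CCACG with 9 bases between them.
*Asns*, chr6:7693210-7693459, minus strand: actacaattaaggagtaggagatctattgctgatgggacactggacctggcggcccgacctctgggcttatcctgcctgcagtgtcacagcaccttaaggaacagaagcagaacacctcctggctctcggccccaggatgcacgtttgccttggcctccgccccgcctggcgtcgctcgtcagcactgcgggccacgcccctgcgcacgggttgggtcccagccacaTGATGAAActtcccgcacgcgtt
*Chac1*, chr2:119350992-119351241, plus strand: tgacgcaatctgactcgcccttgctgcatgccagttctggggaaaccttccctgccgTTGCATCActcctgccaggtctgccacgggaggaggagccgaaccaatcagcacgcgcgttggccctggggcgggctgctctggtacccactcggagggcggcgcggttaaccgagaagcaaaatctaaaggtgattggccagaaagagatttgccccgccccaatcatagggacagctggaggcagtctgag
*Hspa5*, chr2:34771840-34772089, plus strand: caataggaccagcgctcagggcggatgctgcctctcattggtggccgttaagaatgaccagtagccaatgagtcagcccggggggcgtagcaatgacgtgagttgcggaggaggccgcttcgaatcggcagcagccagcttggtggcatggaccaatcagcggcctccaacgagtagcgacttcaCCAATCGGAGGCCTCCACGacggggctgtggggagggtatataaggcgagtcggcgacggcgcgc

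RefSeq windows of 300 bases (250 before and 50 after the start) were matched for 33 of the 36 members, with *Atf6*, *Eif4ebp1* and *Slc7a5* unmatched. TGATGNAA was found in 6 of 23 integrated stress response genes, *Asns*, *Chac1*, *Pck2*, *Slc7a11*, *Trib3* and *Vldlr*. In *Asns* it began 23 bases before the RefSeq start, in *Chac1* 193 bases before it and in *Trib3* 15 bases after it. The gene models of the deposited table start at other bases (*Asns* 7693254, *Chac1* 119351229, *Trib3* 152344032), so these distances hold for RefSeq's starts only. By windows, the share was 22.2% for the integrated stress response members and 3.97% for all 32851 windows of the genome. The ER stress element was found in 4 of 10 unfolded protein response genes, *Calr*, *Hsp90b1*, *Hspa5* and *Pdia6*, which is 40% of their windows against 0.119% of all windows. Of these elements, the unfolded protein response members held TGATGNAA in 1 gene, *Herpud1*, and the integrated stress response members held the ER stress element in 0 genes. The members were listed as genes of these responses, so the shares are description and were not tested. TGATGNAA was also found without the pattern in the WT controls. For *Pck2*, *Vldlr* and *Herpud1*, which carry it, 0 WT control libraries lay above all libraries of the other groups. *Atf4*, which has the pattern, held 0 such sites in its window. The matches describe letters only, and occupancy was not measured.

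**Figure D1:**
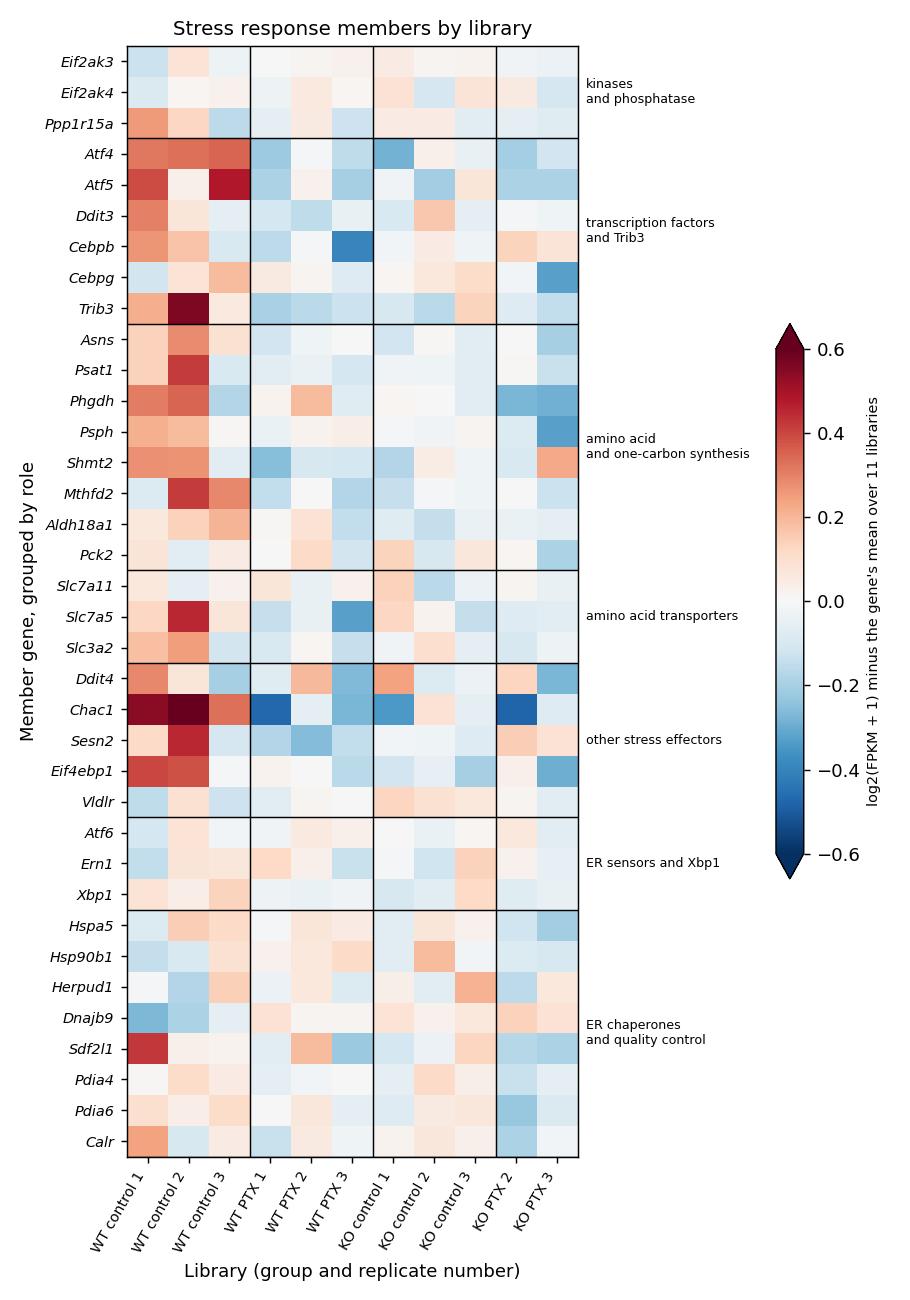
Each row is a member and each column a library, and the colour is log2(FPKM + 1) minus the gene's mean over the 11 libraries, with colours saturated beyond 0.6 in either direction. Most rows from *Ppp1r15a* down to *Eif4ebp1* are red in WT control 1 and WT control 2, with exceptions such as *Cebpg*, *Mthfd2* and *Pck2*, and the rows of the ER sensors and chaperones show no such block.

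Across all members, the WT controls held the highest group mean for 26 of the 35 tested members, against 32.3% of all genes tested, and the single highest library for 27, against 40.9%. All 3 WT controls lay above the other 8 libraries for 3 members, *Atf4*, *Asns* and *Chac1*, and this separation held for 1.28% of all 15087 genes tested. The reverse, all WT controls below the other 8, held for 1 member, *Dnajb9*, and for 1.29% of all genes tested. For 9 further members, *Ppp1r15a*, *Cebpb*, *Trib3*, *Psat1*, *Phgdh*, *Psph*, *Shmt2*, *Slc3a2* and *Eif4ebp1*, WT controls 1 and 2, the males, lay above the other 8 libraries and WT control 3, the female, did not, a pattern held by 6.06% of all genes tested.

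The medians of the arms show the same split between the WT controls. As the median over the 24 tested integrated stress response members of log2 CPM (counts scaled to library size) minus the gene's mean, WT controls 1, 2 and 3 were at 0.25, 0.27 and -0.02. The other 8 libraries were at -0.13 to 0.04, so WT controls 1 and 2 lay above all others and WT control 3 lay among them. For the 11 unfolded protein response members, all libraries were at -0.13 to 0.07, with WT controls at 0.01 to 0.07 and the KO PTX libraries the 2 lowest, at -0.13 and -0.08. The median over all genes tested was between -0.003 and 0.01 in every library.

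**Figure D2:**
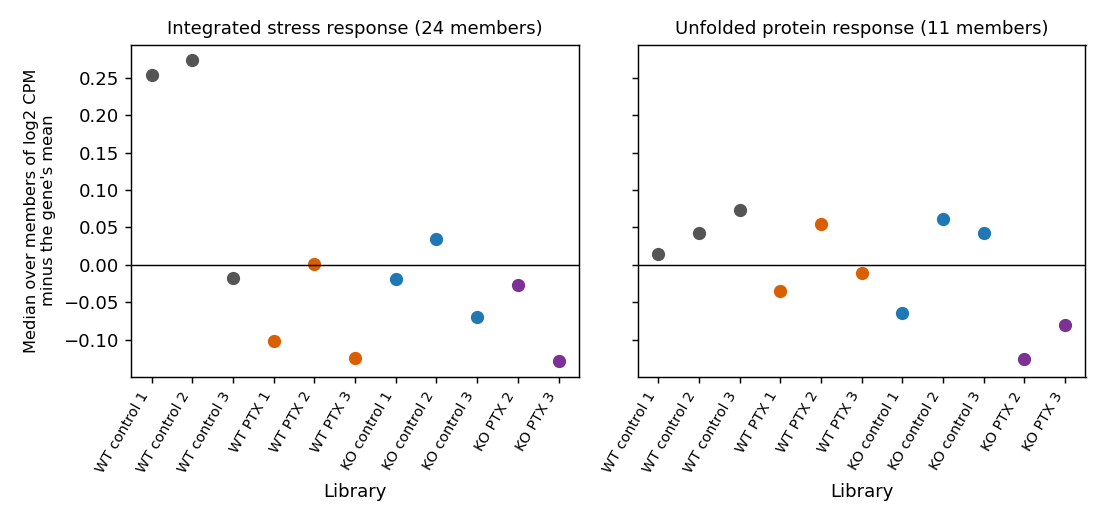
Each point is a library, and the vertical axis is the median over the arm's members of log2 CPM minus the gene's mean over all libraries. In the left panel WT controls 1 and 2 stand at 0.25 and 0.27 above the other 9 libraries, and in the right panel all libraries lie between -0.13 and 0.07.

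Summed markers of sensory neurons, satellite glia and macrophages were also highest in WT controls 1 and 2, and did not follow the members in every library. The neuron markers summed to 4167, 4594 and 3602 FPKM in WT controls 1, 2 and 3 and to 3412 to 4073 FPKM in the other 8 libraries, and the satellite glia markers to 1421, 1257 and 988.1 FPKM against 1033 to 1245 FPKM. WT controls 1 and 2 thus stood above the other 8 libraries in both sums, as they did for many members. WT control 3 had the highest *Atf4* (71.7 FPKM) and the lowest satellite glia sum of all libraries. KO control 2 had the highest sums of the other 8 libraries, 4073 and 1245 FPKM. Its integrated stress response median was 0.035, against 0.254 and 0.274 in WT controls 1 and 2. Of the 9 neuron and 5 satellite glia markers, none had all WT controls above the other 8 libraries, and 1 neuron marker was lower in every WT PTX library than in every WT control. The 7 macrophage markers summed to 38.8, 38.4 and 28.6 FPKM in WT controls 1, 2 and 3, to 20.8 to 25.7 FPKM after PTX in WT, to 26.3 to 29.9 FPKM in KO controls and to 23.7 and 28.1 FPKM after PTX in KO. Of these 7, none was under 0.5 FPKM throughout, 2 had all WT controls above the other 8 libraries and 5 were lower in every WT PTX library than in every WT control. *Atf3*, an injury-induced transcription factor and a partner of the integrated stress response, was at 34.8 and 60.2 FPKM in WT controls 1 and 2 and at 2.79 FPKM in WT control 3, against 1.90 to 19.4 FPKM in the other 8 libraries. The part of these markers and of *Atf3* in the levels of the members was not tested.

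Among the kinases and the phosphatase, the WT controls overlapped the other libraries. *Eif2ak3*, which encodes the ER stress kinase PERK, ranged from 7.74 to 9.12 FPKM, and *Eif2ak4*, which encodes the amino acid sensor GCN2, from 1.59 to 1.95 FPKM. *Ppp1r15a*, which encodes GADD34, the subunit that directs a phosphatase to eIF2, ranged from 9.65 to 13.2 FPKM, with the 2 highest values in WT controls 1 and 2 and the lowest in WT control 3.

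Among the transcription factors, *Atf4* was 48.1, 55.8 and 50.4 FPKM in WT PTX, 45.9, 57.2 and 54.4 FPKM in KO control and 48.6 and 51.7 FPKM in KO PTX. The 3 groups other than WT control overlapped, and the WT controls lay closer together than the libraries of WT PTX or KO control (SD 0.76 against 3.92 and 5.91 FPKM).
*Atf5*, a close relative of *Atf4* that is also translated under eIF2 phosphorylation, was 30.4, 23.4 and 32.3 FPKM in WT control, 20.0, 23.4 and 19.8 FPKM in WT PTX, 22.6, 19.7 and 24.2 FPKM in KO control and 19.96 and 20.0 FPKM in KO PTX. WT control 2 lay within the KO controls.
*Trib3*, a pseudokinase induced by ATF4, was 2.06, 2.87 and 1.74 FPKM in WT control, 1.30, 1.35 and 1.40 FPKM in WT PTX, 1.46, 1.35 and 1.88 FPKM in KO control and 1.49 and 1.37 FPKM in KO PTX. The WT controls lay above both PTX groups and overlapped the KO controls through WT control 3.
*Ddit3*, which encodes the stress-linked factor CHOP, was 15.9, 13.5 and 12.2 FPKM in WT control, 11.8, 11.4 and 12.3 FPKM in WT PTX, 11.9, 14.4 and 12.2 FPKM in KO control and 12.6 and 12.5 FPKM in KO PTX, and all groups overlapped with the WT controls. The annotation places a further record of the same symbol on its strand and *Mars* on the opposite strand, which leaves its level uncertain.
*Cebpb*, a bZIP partner of ATF4 at composite elements, was 1.73, 1.56 and 1.13 FPKM in WT control, 1.04, 1.26 and 0.73 FPKM in WT PTX, 1.25, 1.35 and 1.23 FPKM in KO control and 1.49 and 1.40 FPKM in KO PTX. *Cebpg*, another such partner, was 6.45, 7.52 and 8.18 FPKM in WT control, 7.35, 7.14 and 6.62 FPKM in WT PTX, 7.09, 7.39 and 7.66 FPKM in KO control and 6.94 and 5.41 FPKM in KO PTX. *Cebpg* showed no lead of the WT controls, and its lowest library was KO PTX 3.

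The genes of amino acid and one-carbon synthesis were led by *Asns*, asparagine synthetase. *Asns* was 66.7, 74.0 and 64.5 FPKM in WT control, 55.9, 59.4 and 60.4 FPKM in WT PTX, 55.9, 60.9 and 57.9 FPKM in KO control and 60.5 and 52.6 FPKM in KO PTX. The gap between the lowest WT control and the highest of the other 8 libraries was 64.5 against 60.9 FPKM, and TGATGNAA in its promoter stands in the sequence above.
The serine pathway consists of *Phgdh*, *Psat1* and *Psph*, in that order of steps. *Phgdh* was 20.7, 21.4 and 14.6 FPKM in WT control, 16.9, 19.1 and 15.7 FPKM in WT PTX, 16.7, 16.6 and 15.8 FPKM in KO control and 13.6 and 13.4 FPKM in KO PTX. The KO PTX libraries were the 2 lowest of all 11. *Psat1* ranged from 11.6 to 17.4 FPKM, with the highest values in WT controls 2 and 1. *Psph* was 3.50, 3.44 and 2.90 FPKM in WT control, 2.78, 2.94 and 2.99 FPKM in WT PTX, 2.86, 2.83 and 2.93 FPKM in KO control and 2.67 and 2.10 FPKM in KO PTX, again lowest in KO PTX. *Shmt2*, the mitochondrial enzyme that makes glycine from serine, was 9.07, 9.03 and 6.94 FPKM in WT control, 5.96, 6.77 and 6.74 FPKM in WT PTX, 6.37, 7.59 and 7.16 FPKM in KO control and 6.82 and 8.73 FPKM in KO PTX, where the 2 libraries stood apart. *Mthfd2*, of mitochondrial folate metabolism, ranged from 7.24 to 11.5 FPKM, *Aldh18a1*, of proline synthesis, from 6.96 to 9.16 FPKM, and *Pck2*, the mitochondrial phosphoenolpyruvate carboxykinase, from 7.18 to 9.25 FPKM. In the annotation, genes on the opposite strand overlap *Psph*, *Shmt2*, *Pck2* and *Psat1*, and also *Ppp1r15a*, *Atf5*, *Cebpb*, *Cebpg*, *Eif2ak3* and *Ddit3*. The same holds for *Slc7a5*, *Slc7a11*, *Hsp90b1*, *Herpud1*, *Dnajb9* and *Pdia6*. Whether counting kept strand is not given in the sources used here.

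Among the amino acid transporters, *Slc7a5*, the transporter of large neutral amino acids, was 16.2, 20.7 and 15.7 FPKM in WT control, 13.4, 14.3 and 11.6 FPKM in WT PTX, 16.3, 15.1 and 13.3 FPKM in KO control and 14.0 and 14.1 FPKM in KO PTX. The WT controls lay above both PTX groups and overlapped the KO controls. *Slc3a2*, its heavy-chain partner, ranged from 28.4 to 37.4 FPKM with the highest values in WT controls 2 and 1.

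Among the other effectors, *Chac1*, which encodes an enzyme that degrades glutathione and is a direct target of ATF4, had the largest ratio of highest to lowest library among the tested members (3.04). It was 5.85, 7.20 and 4.92 FPKM in WT control, 2.39, 3.53 and 2.89 FPKM in WT PTX, 2.70, 4.00 and 3.51 FPKM in KO control and 2.37 and 3.45 FPKM in KO PTX, and the WT controls lay above all others. *Sesn2*, a leucine sensor that restrains mTORC1, was 2.24, 3.10 and 1.79 FPKM in WT control, 1.65, 1.50 and 1.70 FPKM in WT PTX, 1.96, 1.94 and 1.84 FPKM in KO control and 2.31 and 2.18 FPKM in KO PTX. In WT the PTX libraries lay below the controls, and in KO they lay above them. *Eif4ebp1*, a repressor of cap-dependent translation, was 2.52, 2.47 and 1.64 FPKM in WT control, 1.70, 1.66 and 1.38 FPKM in WT PTX, 1.46, 1.57 and 1.32 FPKM in KO control and 1.72 and 1.17 FPKM in KO PTX. *Ddit4*, another brake on mTORC1, ranged from 16.7 to 25.1 FPKM and *Vldlr*, a lipoprotein receptor induced by PERK and ATF4, from 2.51 to 3.26 FPKM. Neither separated the WT controls from the rest.

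For the ER sensors and *Xbp1*, the WT controls overlapped the other 8 libraries. *Atf6* ranged from 4.38 to 5.12 FPKM and *Ern1* from 0.96 to 1.39 FPKM. *Xbp1*, the transcription factor that IRE1 activates by splicing, was 22.4, 21.7 and 23.3 FPKM in WT control, 20.6, 20.5 and 20.8 FPKM in WT PTX, 19.7, 20.1 and 23.0 FPKM in KO control and 20.1 and 20.4 FPKM in KO PTX. The WT PTX libraries all lay below the WT controls by a narrow margin, and gene totals do not resolve the spliced form.

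Among the chaperones, *Hspa5* was 63.9, 75.0 and 73.5 FPKM in WT control, 67.4, 71.3 and 70.1 FPKM in WT PTX, 64.7, 71.3 and 68.9 FPKM in KO control and 62.2 and 58.4 FPKM in KO PTX. The KO PTX libraries were the 2 lowest, and the other 3 groups overlapped. *Pdia6*, a protein disulphide isomerase, was 31.4, 30.1 and 31.7 FPKM in WT control, 29.2, 30.7 and 28.2 FPKM in WT PTX, 27.7, 30.4 and 30.7 FPKM in KO control and 24.9 and 27.5 FPKM in KO PTX, with the same 2 libraries lowest. *Dnajb9*, a BiP co-chaperone that is induced through IRE1 and XBP1, was 13.3, 14.2 and 15.7 FPKM in WT control, 17.3, 16.5 and 16.5 FPKM in WT PTX, 17.3, 16.6 and 17.1 FPKM in KO control and 17.99 and 17.4 FPKM in KO PTX. It is the member whose WT controls all lay below the other 8 libraries. *Herpud1*, of ER-associated degradation, was 21.1, 18.7 and 23.6 FPKM in WT control, 20.7, 22.2 and 20.0 FPKM in WT PTX, 21.8, 20.3 and 24.7 FPKM in KO control and 18.9 and 22.2 FPKM in KO PTX, and its groups overlapped. *Calr* ranged from 95.5 to 129 FPKM, *Hsp90b1* from 83.2 to 105 FPKM, *Pdia4* from 20.4 to 24.4 FPKM and *Sdf2l1*, a BiP cofactor, from 4.29 to 7.27 FPKM.

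**Figure D3:**
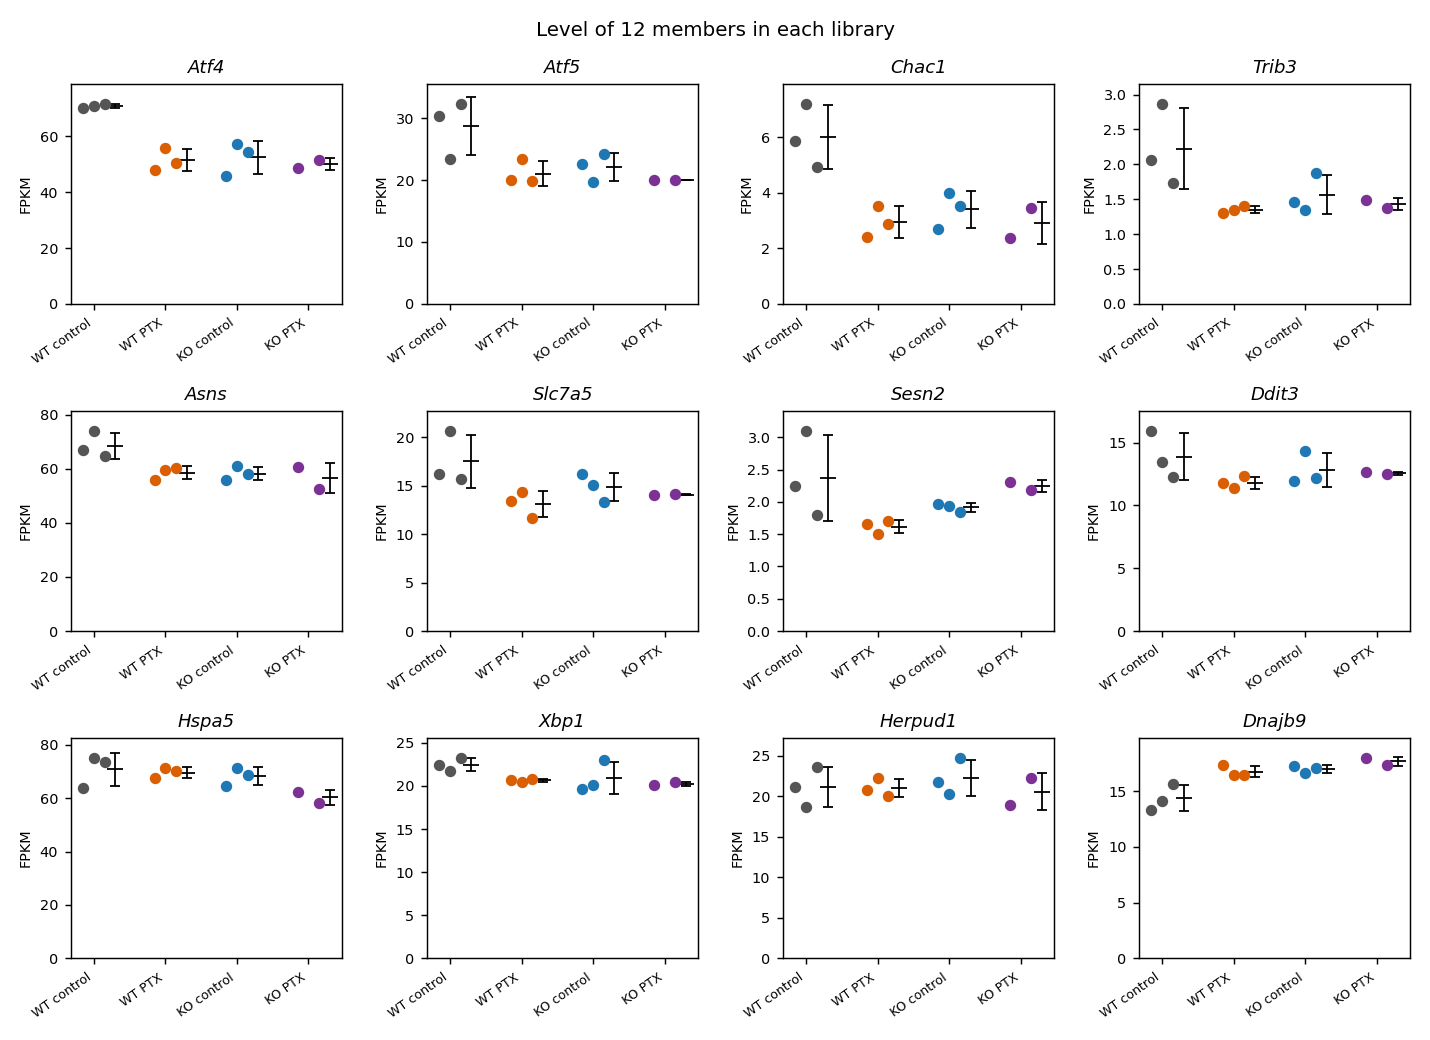
Each panel is a member, each point a library in FPKM, and the black marks are the group mean and its SD (n = 3, or 2 for KO PTX), with each vertical axis starting at 0. In the *Atf4*, *Asns* and *Chac1* panels all WT controls stand above the other 8 libraries, in the *Dnajb9* panel they stand below them, and in the *Herpud1* panel the groups overlap.

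The first comparison asked what PTX changed in WT DRGs. Of the 24 integrated stress response members tested, 21 had a log2 fold change below 0, led by p-value by *Atf4*, *Slc7a5*, *Chac1*, *Atf5* and *Trib3*, and none passed edgeR's adjusted threshold. Over all genes tested, 7718 of 15087 were below 0. *Atf4* was lower by 27.7% (log2 fold change -0.47, SE 0.09, adjusted p = 0.203 by edgeR) and *Slc7a5* by 25.4% (-0.42, SE 0.10, adjusted p = 0.203 by edgeR). *Chac1* was lower by 51.1% (-1.03, SE 0.24, adjusted p = 0.21 by edgeR), *Atf5* by 26.6% (-0.45, SE 0.12, adjusted p = 0.238 by edgeR) and *Trib3* by 39.5% (-0.72, SE 0.22, adjusted p = 0.266 by edgeR). *Dnajb9* was higher in WT PTX (0.22, SE 0.07, adjusted p = 0.284 by edgeR).

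By edgeR, 0 of 35 members passed the adjusted threshold, as did 0.00663% of all genes tested. At an unadjusted p under 0.05, 12 members were lower and 1 was higher, against 6.87% and 6.59% of all genes. For lower levels the members' share was larger than the background. The members were chosen with earlier results of these data known, so that share is description only. The groups did not overlap for 10 members with lower levels, *Asns*, *Atf4*, *Atf5*, *Chac1*, *Pdia4*, *Sesn2*, *Shmt2*, *Slc7a5*, *Trib3* and *Xbp1*, against 7.37% of all genes. From the highest WT PTX to the lowest WT control library, the gap was narrow for *Atf5* (23.36 against 23.43 FPKM) and *Pdia4* (22.51 against 22.59 FPKM). The groups also did not overlap for 1 member with a higher level, *Dnajb9*, against 6.81% of all genes. DESeq2 called 4 members lower, against 2.05% of all genes called in either direction. These were *Atf4* (adjusted p = 0.000877), *Chac1* (adjusted p = 0.00388), *Slc7a5* (adjusted p = 0.00734) and *Atf5* (adjusted p = 0.0232). The count at an unadjusted p under 0.05 was 7 in all without WT PTX 1 and 8 without WT control 2, against 13 with all libraries.

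By role, the median log2 fold change for PTX in WT was -0.46 for the 6 transcription factors and *Trib3*, all of them below 0, and -0.20 for the 8 genes of amino acid and one-carbon synthesis, all of them also below 0. It was -0.47 for the 5 other effectors, -0.31 for the 2 transporters tested and 0.04 for the kinases and the phosphatase. For the ER sensors and *Xbp1* it was 0.02 (3 genes) and for the ER chaperones -0.06 (8 genes). Over all members it was -0.13, over the 24 integrated stress response members -0.23 and over the 11 unfolded protein response members -0.03, against -0.01 over all genes tested. Without WT control 3 the median over all members was -0.23.

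The second comparison asked what PTX changed in KO DRGs, with 2 libraries against 3. The chaperones *Pdia6* and *Hspa5* and the serine pathway genes *Psph* and *Phgdh* had the smallest p-values together with *Cebpg*, and none passed the adjusted threshold. *Pdia6* was lower by 12.0% (log2 fold change -0.18, SE 0.08) and *Hspa5* by 11.9% (-0.18, SE 0.08) in KO PTX. *Cebpg* was lower by 16.4% (-0.26, SE 0.12), *Psph* by 16.4% (-0.26, SE 0.13) and *Phgdh* by 15.4% (-0.24, SE 0.12), and edgeR's adjusted p was 0.999 for each of these 5. *Atf4* differed by -0.07 (interval of 2 SE on either side, -0.28 to 0.13) and *Chac1* by -0.23 (-0.77 to 0.31), intervals that leave room for changes in either direction.

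By edgeR, 0 of 35 members passed the adjusted threshold, against 0.00663% of all genes tested. Without adjustment (p under 0.05), 1 member, *Pdia6*, was lower and 0 were higher, against 2.57% and 1.75% of all genes, a share near the background. DESeq2 called 0 members and 0.186% of all genes. The median log2 fold change was -0.07 over all members, -0.06 over the integrated stress response and -0.14 over the unfolded protein response, where 9 of 11 members were below 0, against -0.01 over all genes tested. Of all 15087 genes tested, 7954 were below 0. The KO PTX libraries also carried the highest sums of central glia and spinal cord markers, 6.33 and 17.3 FPKM, and the lowest depths of the KO libraries, and their part in these values was not tested.

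**Figure D4:**
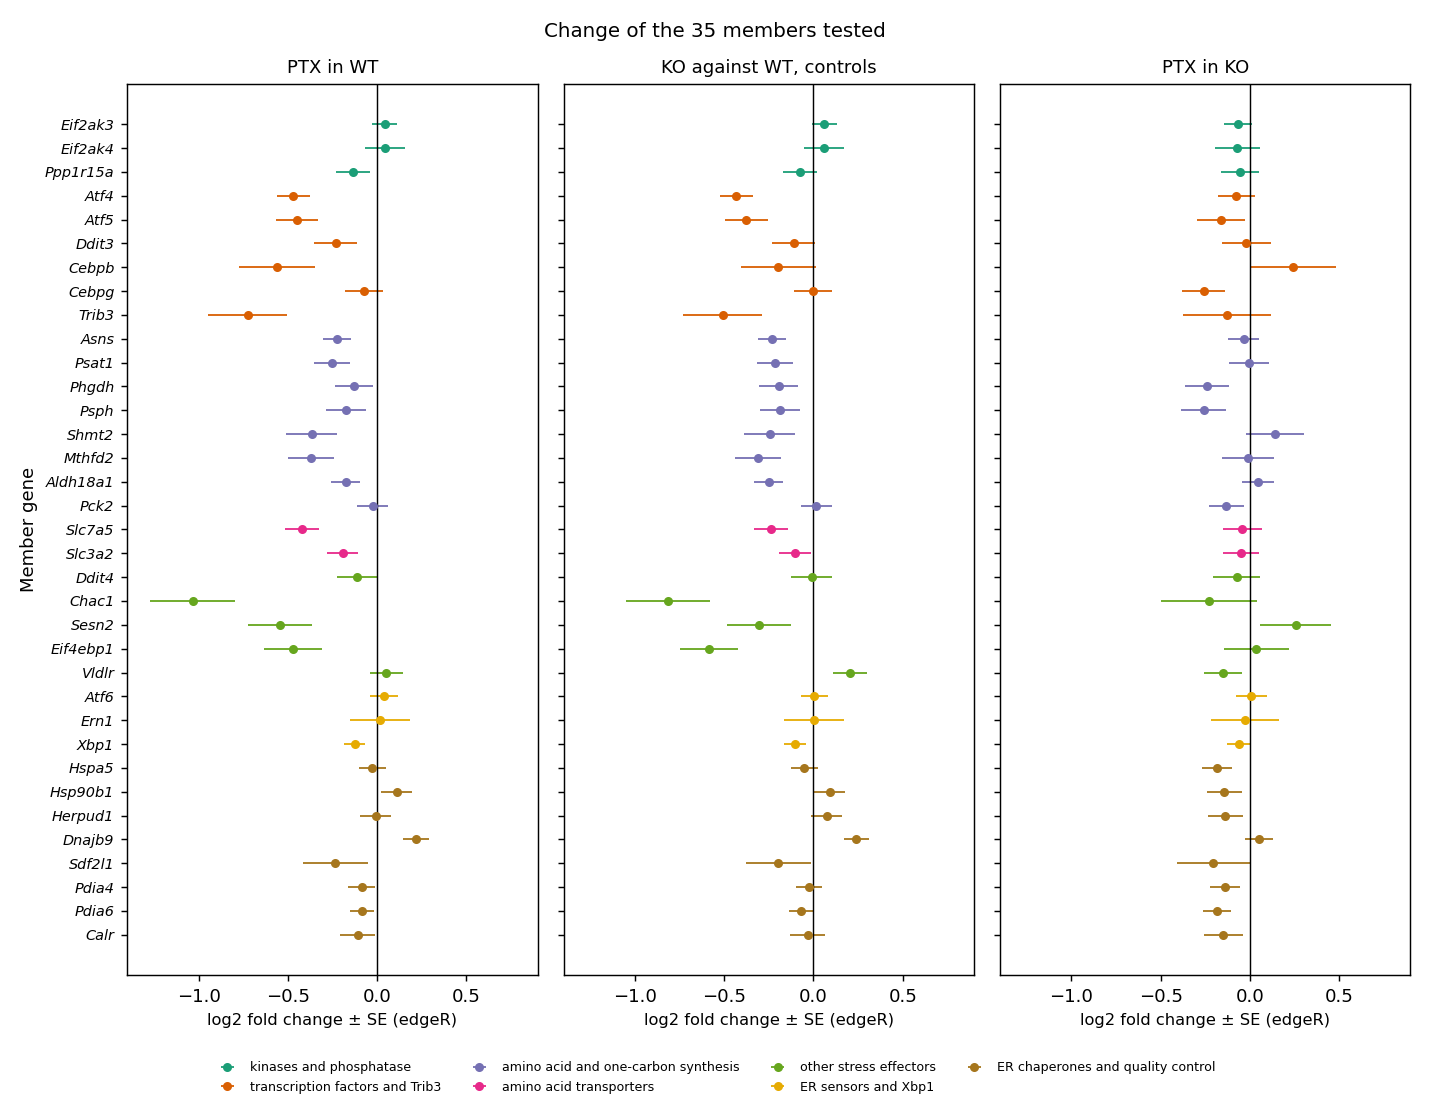
Points are log2 fold changes from edgeR with their SE for the 35 members tested, coloured by role, in 3 comparisons. In the panels for PTX in WT and for KO against WT controls the transcription factors, *Chac1* and *Eif4ebp1* lie left of 0, and both panels use the same WT controls. In the panel for PTX in KO, 28 of the 35 points lie left of 0 and none beyond 0.26 from it. Over all genes tested, 7954 of 15087 were below 0 for PTX in KO.

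The third comparison set KO controls against WT controls, to ask what loss of *Gpr37l1* changed without PTX. *Atf4* was lower in KO controls by 25.9% (log2 fold change -0.43, SE 0.09) and *Eif4ebp1* by 33.3% (-0.58, SE 0.16). *Chac1* was lower by 43.1% (-0.81, SE 0.24) and *Atf5* by 22.9% (-0.38, SE 0.12), while *Dnajb9* was higher (0.24, SE 0.07). The adjusted p by edgeR was 0.657 for each of these 5. This comparison uses the same 3 WT controls as that for PTX in WT, so the values of the members in both rest on the same libraries.

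By edgeR, 0 of 35 members passed the adjusted threshold, against 0.00663% of all genes tested. At an unadjusted p under 0.05, 9 members were lower and 1 was higher, against 3.58% and 3.96% of all genes. For lower levels this is a larger share than the background, again as description only, since the choice of members followed earlier results. The groups did not overlap for 5 members with lower levels in KO, *Aldh18a1*, *Asns*, *Atf4*, *Chac1* and *Eif4ebp1*, against 4.73% of all genes, and for 1 with a higher level, *Dnajb9*, against 4.55%. DESeq2 called 1 member, *Atf4* (adjusted p = 0.00987), against 0.278% of all genes. The median log2 fold change was -0.10 over all members, -0.21 over the integrated stress response and -0.03 over the unfolded protein response, against 0.003 over all genes tested. Over all members it was -0.20 without WT control 3 and -0.16 without KO control 2.

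The fourth comparison set KO against WT after PTX. *Cebpb* was higher in KO PTX (log2 fold change 0.61, SE 0.24), as was *Sesn2* (0.50, SE 0.20). *Phgdh* was lower by 19.3% (-0.31, SE 0.12), *Hspa5* by 13.4% (-0.21, SE 0.08) and *Pdia6* by 11.04% (-0.17, SE 0.08). The adjusted p by edgeR was 0.993 for each of these 5. *Atf4* differed by -0.04 (interval of 2 SE on either side, -0.25 to 0.17), which does not show that the groups were alike.

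By edgeR, 0 of 35 members passed the adjusted threshold, against 0.0133% of all genes tested. At an unadjusted p under 0.05, 2 members were lower and 2 were higher, against 1.74% and 1.81% of all genes, and DESeq2 called 0 members and 0.0597% of all genes. That unadjusted count of 4 was 1 without WT PTX 2, 1 without WT PTX 3 and 2 without KO PTX 3. The median log2 fold change was -0.04 over all members, -0.004 over the integrated stress response and -0.07 over the unfolded protein response, with 10 of its 11 members below 0, against -0.01 over all genes tested. Of all 15087 genes tested, 7890 were below 0.

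The interaction asked whether the difference made by PTX depended on genotype. The effect of PTX in KO minus that in WT was 0.80 for *Sesn2* (log2 scale, SE 0.27), 0.39 for *Atf4* (SE 0.14), 0.38 for *Slc7a5* (SE 0.14), 0.80 for *Cebpb* (SE 0.32), 0.51 for *Shmt2* (SE 0.21) and 0.80 for *Chac1* (SE 0.35). The adjusted p by edgeR was 0.724 for each of these 6, so a dependence on genotype was not shown. *Sesn2* is the 1 of these whose PTX libraries lay entirely below the controls in WT and entirely above them in KO.

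By edgeR, 0 of 35 members passed the adjusted threshold for the interaction, against 0.00663% of all genes tested, and DESeq2 called 0 members and 0.0795% of all genes. At an unadjusted p under 0.05, 6 members had a positive and 0 a negative interaction, against 3.12% and 3.18% of all genes. This count was 10 without WT control 3, 3 without KO control 1, 2 without WT PTX 1 and 1 without KO PTX 3. The median interaction was 0.04 over all members, 0.22 over the integrated stress response and -0.05 over the unfolded protein response, against -0.01 over all genes tested. Over all members it was 0.10 without WT PTX 2 and 0.12 without KO control 3.

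Further genes of both responses were read in the same fit. Of 44 other integrated stress response genes, among them aminoacyl-tRNA synthetases, eIF2B subunits and *Atf3*, 38 were tested and 0 passed edgeR's adjusted threshold in any comparison. At an unadjusted p under 0.05, 8 were lower and 1 was higher for PTX in WT, against 6.87% and 6.59% of all genes, and 10 were lower and 1 was higher for KO against WT controls, against 3.58% and 3.96%. Both comparisons rest on the same WT controls, and this list was also chosen with earlier results known, so these counts are description only. The counts were 1 lower for PTX in KO (2.57% of all genes), 1 lower for KO against WT after PTX (1.74%), and 4 positive and 2 negative for the interaction (3.12% and 3.18%). *Atf3* had a log2 fold change of -2.02 for PTX in WT (SE 0.52, adjusted p = 0.238 by edgeR). *Yars*, the tyrosyl-tRNA synthetase, was at 20.6 to 25.3 FPKM in WT control and at 17.7 to 20.1 FPKM in the other 8 libraries, with a log2 fold change of -0.26 for PTX in WT (SE 0.08, adjusted p = 0.257 by edgeR). *Gadd45a*, a stress-induced growth arrest gene, was 14.1, 20.7 and 7.50 FPKM in WT control and 7.36 to 8.04 FPKM in WT PTX, and it is the 1 gene of this list that DESeq2 called for PTX in WT (adjusted p = 0.0367), where 2.05% of all genes were called.

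Of 40 other unfolded protein response genes, such as chaperones, foldases and degradation factors of the ER, 38 were tested and 0 passed the adjusted threshold of edgeR or of DESeq2 in any comparison. Without adjustment (p under 0.05), 4 were lower and 3 higher for PTX in WT, against 6.87% and 6.59% of all genes. In the same way, 3 were lower for KO against WT controls, against 3.58%, and 3 interactions were negative and 1 was positive, against 3.18% and 3.12%. The other comparisons had 0, and with 38 genes counts this small were not read as a difference from all genes. *Creb3*, an ER-bound transcription factor, was at 17.0 to 20.3 FPKM in WT control and 13.6 to 17.1 FPKM in WT PTX (log2 fold change -0.25, SE 0.07, adjusted p = 0.255 by edgeR). The medians for PTX in WT were -0.07 over the other integrated stress response genes and -0.04 over the other unfolded protein response genes, and for KO against WT controls -0.08 and 0.01.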

How the data were processed

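Poly(A) RNA of DRGs was sequenced with a strand-specific kit in 11 libraries. The authors deposited 1 table of 36670 genes with FPKM values, scaled for length and library size, and estimated counts without normalization. The submitters' processing notes name cutadapt, FastQC, HISAT2, StringTie and mm10, with versions not given in the sources used here. Groups and replicate numbers came from the labels' descriptions, whose numbers for the KO PTX libraries (2 and 3) differ from their titles.

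Counts were rounded and tested with edgeR 4.0.16 (R 4.3.3), TMM and the quasi-likelihood test, all 11 libraries in 1 fit with the sex given in the labels as a term. Genes whose mean FPKM reached 0.5, 15087 in all, entered the test, with Benjamini-Hochberg adjustment over all of them and a threshold of 0.05. SE is the size of a log2 fold change over the root of its F statistic. The code was tested on simulated data. Alternatives used DESeq2 1.42.0, limma 3.58.1 with log2(FPKM + 1) or log2(FPKM + 0.1), limma-voom, other filters, no sex covariate, a replicate block and each library left out.

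The members, roles, other pathway lists and markers were chosen with earlier results of these data known. Per-library values were given for *Atf4*, *Ddit3*, *Asns*, *Trib3*, *Chac1*, *Hspa5*, *Xbp1*, *Herpud1* and the 5 members with the smallest p-values in each comparison, and at most 3 other pathway genes were named per comparison. *Chac1* in the interaction was added to these after its value was seen. Same-numbered WT and KO control libraries deviated together across genes (r = 0.109 to 0.231 for the 3 pairs), which paired them by the rule of r over 0.1, although no source says that a number marks a shared animal or day, and number 3 is also the female. Same-numbered WT control and WT PTX libraries did not (r = -0.153 to 0.034). Some differently numbered pairs also passed 0.1, such as WT control 1 with WT PTX 2 (r = 0.158) and WT PTX 1 with KO PTX 2 (r = 0.16). The mean r was 0.078 for same-numbered and -0.039 for differently numbered pairs. Deviations were taken from each group's mean, which ties these means to each other, so the latter is not a separate baseline. Figures were drawn with matplotlib 3.10.9, and gene models were read from GENCODE M21 (GRCm38). Library totals of 52735648 to 80348732 counts gave the lowest tested members, such as *Cebpb*, 67 to 191 counts.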

Additional observations from a re-analysis of the deposited data

How the results depend on the processing

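The number of members past the threshold was 0 in every comparison with edgeR under other scaling, other filters, no sex covariate, only the libraries compared, each library left out, and with the 3 limma fits. DESeq2 gave 4 for PTX in WT and 1 for KO against WT controls, out of 309 and 42 genes called where edgeR called 1 and 1, and it called 28 genes for PTX in KO, 9 for KO against WT after PTX and 12 for the interaction, against 1, 2 and 1 by edgeR. The cause of that gap was not tested. For PTX in WT, over all genes, edgeR called 30 without WT control 3, 7 without WT control 2 and 5 with only the libraries compared. With each library left out in turn, the median log2 fold change of the members lay between -0.233 and -0.113 for PTX in WT, -0.087 and -0.049 for PTX in KO, 0.027 and 0.123 for the interaction, -0.199 and -0.063 for KO against WT controls, and -0.061 and 0.002 for KO against WT after PTX. None of the members named among the smallest p-values of a comparison changed sign under these alternatives. With a replicate block, the median was -0.133 for PTX in WT and -0.105 for KO against WT controls, *Atf4* had -0.47 (adjusted p = 0.25 by edgeR) and -0.44 (adjusted p = 0.629 by edgeR), and the block changed no call of a member. *Atf4* for PTX in WT had an adjusted p of 0.0877 to 0.685 with libraries left out and of 0.000877 to 0.363 under the other settings. With pseudocounts of 1, fold changes of low members such as *Trib3* and *Cebpb* were smaller, down to -0.44 and -0.30 for PTX in WT. *Xbp1* splicing, translation and phosphorylation were not measured, and the KO PTX group has 2 libraries.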

Other observations

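*Atf3* differed more between replicate numbers than any group mean shows. It was 34.8 and 60.2 FPKM in the male WT controls and 2.79 FPKM in the female, 5.09 and 11.3 FPKM in the male WT PTX libraries and 1.90 FPKM in the female, 8.22 and 19.4 FPKM in the male KO controls and 2.09 FPKM in the female, and 8.89 FPKM in the male and 2.67 FPKM in the female KO PTX library. The female library was the lowest of its group in all 4 groups, and with 1 female per group this was not tested. *Gadd45a* did not follow it throughout: the female was lowest in WT control (7.50 against 14.1 and 20.7 FPKM), in KO control (7.58 against 8.32 and 10.5 FPKM) and in KO PTX (6.47 against 7.29 FPKM), and lay between the males in WT PTX (7.93 against 7.36 and 8.04 FPKM).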
